A study of Mus musculus with 6 samples.

Results

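The 9 cardiac potassium channel genes described here were Kcnj2, Kcnj3, Kcnj5, Kcnj11, Kcnd2, Kcnd3, Kcnip2, Kcna5 and Kcnq1. They were chosen by name as inward rectifier and repolarizing potassium channel genes of heart muscle, and all 9 were found by Ensembl identifier among the 20254 genes of the table. The libraries were made from total RNA of whole hearts of adult C57BL/6 mice, and 2 genotypes were labelled. The 3 Trdn-as KO hearts (KO), in which the long non-coding RNA Trdn-as is knocked out, comprised replicates 1 and 2 at 14 months of age and replicate 3 at 5 months. The 3 WT hearts had the same ages under the same numbers. How the KO allele was made and the sex of the mice are not given in the labels. The labels number the samples without saying more on their origin, so p-values measure the spread between these 6 libraries, which may in part be technical.

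Potassium channels carry the outward currents that end the cardiac action potential and hold the resting potential of heart muscle cells. Inward rectifiers set the resting potential or open on vagal or metabolic signals, voltage-gated channels of the transient outward and delayed rectifier type repolarize the cell, and auxiliary subunits set how many channels reach the membrane and how they gate. In mice the transient outward and fast delayed rectifier currents dominate repolarization of ventricular cells. The slow delayed rectifier formed with KCNQ1 is known mainly from human heart, where its loss causes long QT syndrome.

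Between KO and WT hearts none of the 9 genes passed the test. Kcnd3 was the one member whose libraries did not overlap between genotypes, with all 3 KO values above all 3 WT values. Of all genes tested, 5.77% did not overlap in one direction or the other. Between ages 5 of the 9 passed, against 33.7% of all genes. Of these 5 members 2 passed once a trend with transcript length and GC content was removed, against 25.4% of all genes in that setting. Kcnj3, Kcnj11, Kcnq1 and Kcna5 were 1.48 to 1.84-fold as high at 14 months as at 5 months, and Kcnj2 at 14 months was at 65.4% of its 5-month level. The plot of values by library shows every measurement.

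**Figure D1:**
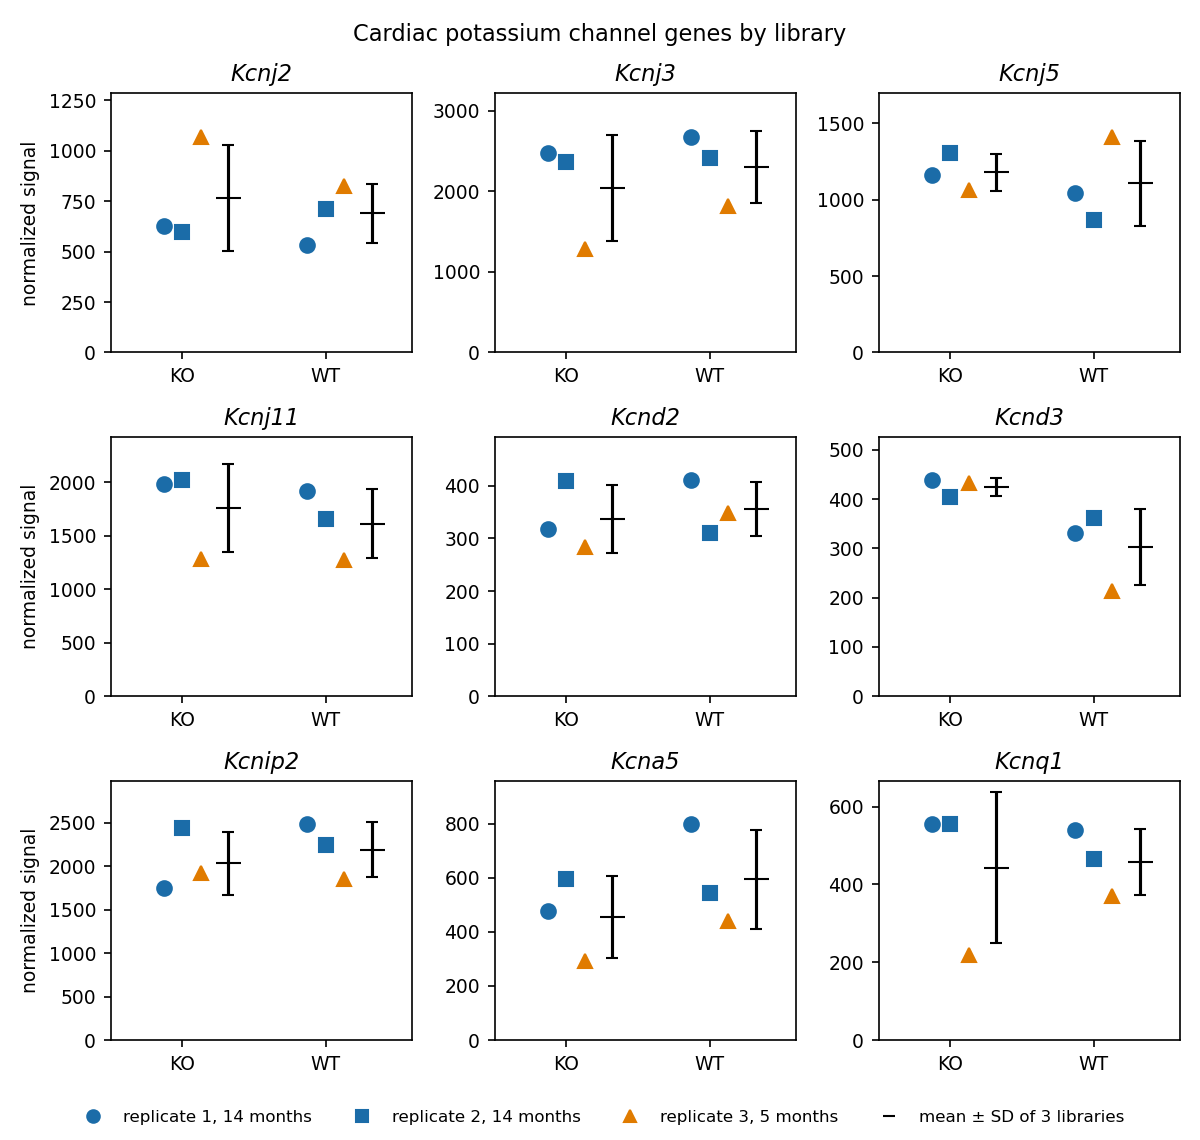
Normalized signal of the 9 potassium channel genes in each of the 6 libraries, with KO left of WT, 14-month libraries in blue and 5-month libraries in orange, and the mean ± SD of 3 libraries as a bar. The 3 KO points of Kcnd3 (404 to 438) sit above its 3 WT points (214 to 361), and the 5-month triangles lie lowest of their genotype for Kcnj3, Kcnj11, Kcnq1 and Kcna5 and highest for Kcnj2.

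The deposited values are a normalized signal per gene, with totals in units of 1e6 of 19.8 to 21.6 in KO libraries and 19.9 to 23.5 in WT libraries, and the read depth behind them is not known. Genes above 0 numbered 17417 to 17722 in KO and 16735 to 17619 in WT, and the 5-month library was the lowest of each genotype. Mitochondrially encoded genes held 41.6 to 49.4% of the signal in KO libraries and 40.0 to 45.6% in WT libraries, and both 5-month libraries were below all libraries of 14 months. All 7 ventricular cardiomyocyte markers were detected in every library, with a summed signal of 520766 to 590870 in KO hearts and 547440 to 1077920 in WT hearts, where WT replicate 3 at 5 months stood apart at the top. Y-linked genes summed to 82.2 in KO replicate 2 and 54.9 in WT replicate 2, against 2496 to 4482 in the other two KO libraries and 2854 to 3895 in the other two WT libraries. The RNA named as the target, Trdn-as, was not analysed here, so the KO label was not checked on its target. Its sense neighbour Trdn had 3429, 3460 and 5606 in KO hearts, against 5702, 5600 and 9104 in WT hearts, 61.2% of WT with age in the model (log2 difference −0.71, SE 0.10, limma adjusted p = 0.261).

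Levels of different genes were compared per kb of exon, with all annotated exons of a gene joined, as the plot of levels per exon length shows. Kcnip2, whose product is the calcium-binding auxiliary subunit of the transient outward channel, was the most abundant of the 9, with a mean of 609 ± 91.4 per kb (SD, n = 6 libraries). Kcnj11 followed at 459 ± 93.0 and Kcnj3 at 417 ± 100.3 per kb. Kcnj5 averaged 244 ± 42.0, Kcna5 183 ± 59.1, Kcnj2 134 ± 36.0 and Kcnq1 110 ± 32.7 per kb. The channel-forming subunits of the transient outward current were the least abundant, Kcnd2 at 67.3 ± 10.3 and Kcnd3 at 37.9 ± 8.76 per kb. Kcnd2 and Kcnd3 were the only neighbours in this order whose 6-library ranges were apart, at 55.2 to 79.6 and 22.3 to 45.7 per kb. Kcnj3 was above Kcnj5 in 6 of 6 libraries although their ranges met, and each of the other neighbours changed place in at least 1 library. The auxiliary subunit gene Kcnip2 was thus at a higher level per kb than the channel genes Kcnd2 and Kcnd3 in every library. The gap between Kcnd2 and Kcnd3 depends on the length used, which for Kcnd3 was 9587 bp, against 7169 bp for its longest transcript. Undivided, Kcnd3 was above Kcnd2 in KO replicates 1 and 3 and WT replicate 2, and below it in the other libraries.

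**Figure D2:**
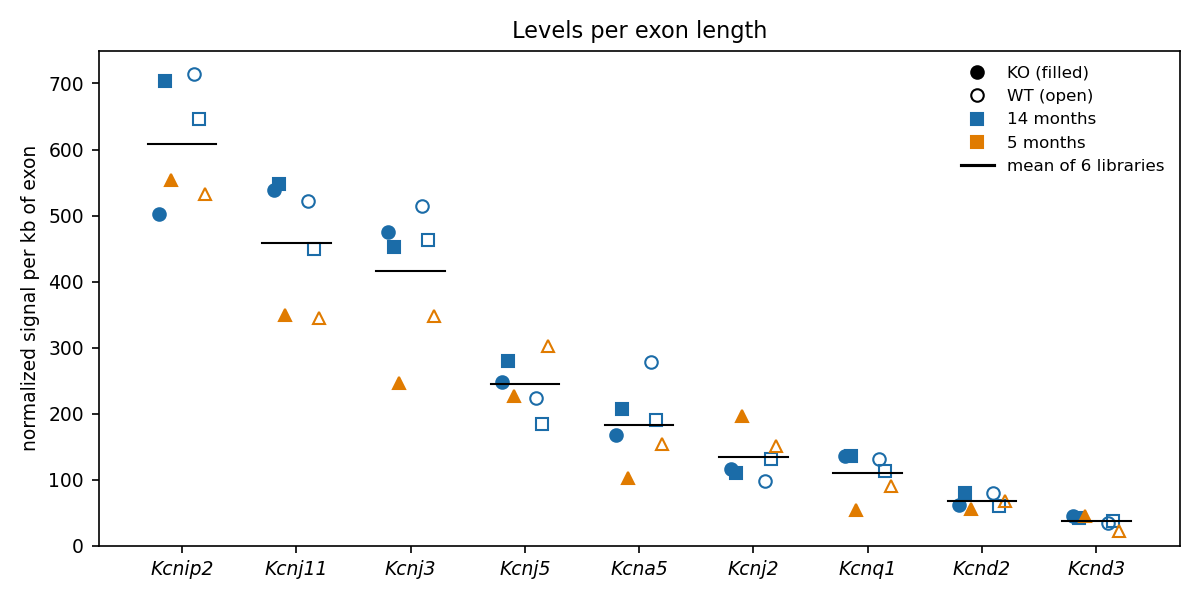
Normalized signal per kb of exon for the 9 genes in the order of their means, KO points filled and left of the open WT points, with circles, squares and triangles for replicates 1, 2 and 3 and the line at the mean of 6 libraries. Kcnip2 leads with 502 to 715 per kb and Kcnd3 is last with 22.3 to 45.7 per kb.

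Set beside 57 other potassium channel genes of the table, the 9 held 41.8 to 42.8% of the summed level per kb in KO libraries and 42.5 to 43.8% in WT libraries. The most abundant of the other genes were Kcnk3, an acid-sensitive background channel, at 953 ± 206 per kb and Abcc9, the sulfonylurea receptor that pairs with Kcnj11 in cardiac ATP-sensitive channels, at 739 ± 184 per kb. Both were above Kcnip2 in the mean. Next came the modifier subunit Kcng2 at 371 ± 66.9, Kcnh2, the rapid delayed rectifier channel, at 193 ± 20.4 and the vascular ATP-sensitive channel Kcnj8 at 164 ± 35.2 per kb. Whole hearts hold several cell types, and in bulk RNA fewer cells of a type and less RNA per cell cannot be told apart.

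The first comparison asked whether loss of Trdn-as moved the channel genes. No member passed limma at an adjusted p under 0.05 with age as a covariate (0 of 9), and the same held for 0 of 13823 genes tested, a background of 0%. At an unadjusted p under 0.05 the counts were 1 of the 9 and 841 of all genes, and limma-voom also made 0 calls with 854 genes under that level. The estimates of 4 members were above 0 and those of 5 below, with a median log2 difference of −0.09 against −0.02 over all genes tested. The narrowest 95% interval was that of Kcnj11, −0.14 to 0.38, and the intervals of all 9 are in the plot of the differences.

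**Figure D3:**
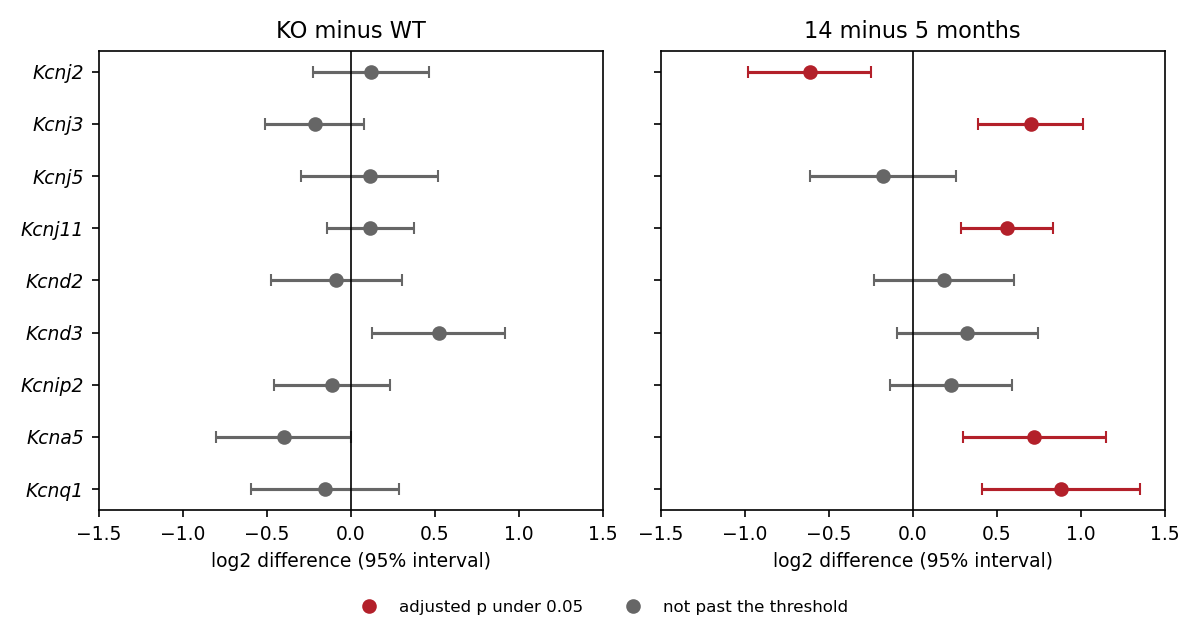
Log2 differences of the 9 genes with 95% intervals, KO minus WT on the left and 14 minus 5 months on the right, red where the adjusted p was under 0.05. The interval of Kcnd3 (0.13 to 0.92) lies above 0 for genotype without passing the adjusted threshold, and 5 genes are red for age, with Kcnj2 alone on the negative side.

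Among the transient outward genes, Kcnd3, a pore-forming subunit, had 438, 404 and 433 in KO hearts, against 332, 361 and 214 in WT hearts. The KO libraries lay within a narrow band above every WT library, and WT replicate 3 at 5 months was the lowest of all. The means were 425 ± 18.3 in KO and 302 ± 77.6 in WT (SD, n = 3 each), a log2 difference of 0.52 (SE 0.17, 95% interval 0.13 to 0.92, limma adjusted p = 0.745). By replicate number the differences were 0.40, 0.16 and 1.01, and the 14-month libraries alone gave 0.28. Kcnd3 was the only member without overlap between genotypes, and 5.77% of all genes tested did not overlap either (2.88% with KO higher, 2.89% with KO lower). Of its 9587 bp of exon, 165 bp are shared with Kcnd3os on the other strand. Whether the counting used strand is not given in the sources used here, so reads of that stretch cannot be told apart.

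Kcnd2, the other pore-forming subunit, had 318, 409 and 284 in KO hearts, against 410, 309 and 349 in WT hearts. The genotypes overlapped and the sign of the difference changed between replicate numbers (−0.36, 0.40 and −0.29). Its log2 difference was −0.09 (SE 0.17, limma adjusted p = 0.891). Kcnip2 had 1746, 2445 and 1925 in KO hearts, against 2485, 2245 and 1851 in WT hearts, also overlapping (−0.11, SE 0.15, limma adjusted p = 0.840). The log2 ratio of Kcnip2 to Kcnd3 within a library, which does not depend on the scaling of the library, was 1.99, 2.59 and 2.15 in KO hearts, against 2.90, 2.63 and 3.10 in WT hearts. These ratios did not overlap. Their mean differed by −0.63, with an exact two-sided permutation p of 0.1, the smallest that 3 against 3 libraries can give, and 0.4 after adjustment over the 8 subunit ratios compared. The ratio of Kcnd2 to Kcnd3 was −0.46, 0.02 and −0.60 in KO and 0.31, −0.22 and 0.70 in WT hearts and overlapped (difference −0.61, exact permutation p = 0.2, adjusted p = 0.4). Both ratios contain Kcnd3 and so are not separate evidence on it.

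Among the inward rectifiers, Kcnj2, the main channel of the background inward rectifier current, had 629, 598 and 1071 in KO hearts, against 532, 711 and 825 in WT hearts. In both genotypes the 5-month library was the highest, and the genotypes overlapped (log2 difference 0.12, SE 0.15, limma adjusted p = 0.824). Kcnj3 and Kcnj5 assemble into the acetylcholine-activated channel of atrial and nodal cells. Kcnj3 had 2481, 2361 and 1284 in KO hearts, against 2681, 2418 and 1814 in WT hearts. Its genotypes overlapped (log2 difference −0.21, SE 0.13, limma adjusted p = 0.745), and the 14-month libraries alone gave −0.073. Kcnj5 had 1165, 1309 and 1063 in KO hearts, against 1046, 866 and 1414 in WT hearts, higher in KO at 14 months and lower at 5 months (0.11, SE 0.18, limma adjusted p = 0.864). Their log2 ratio overlapped between genotypes (difference −0.33, exact permutation p = 0.5, adjusted p = 0.8). Kcnj11, the pore of the ATP-sensitive channel, had 1982, 2016 and 1286 in KO hearts, against 1918, 1653 and 1270 in WT hearts. By replicate number KO minus WT was 0.05, 0.29 and 0.02, and the genotypes overlapped (log2 difference 0.12, SE 0.11, limma adjusted p = 0.780).

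The ratio of Kcnj11 to its partner Abcc9 gave the other pair of genotypes without overlap. On the log2 scale it was −1.64, −1.86 and −1.57 in KO hearts, against −2.04, −2.07 and −1.98 in WT hearts. The difference of 0.34 had an exact permutation p of 0.1, again the smallest possible, and 0.4 after adjustment over the 8 ratios. Abcc9 itself had 6161, 7338 and 3812 in KO hearts, against 7868, 6968 and 4995 in WT hearts (log2 difference −0.22, SE 0.13, limma adjusted p = 0.745). Neither gene of the pair passed the test between genotypes alone.

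Among the delayed rectifiers, Kcna5, which carries an ultrarapid current, had 478, 594 and 292 in KO hearts, against 797, 544 and 439 in WT hearts. The genotypes overlapped, and in replicate 2 the KO value was above the WT value. Its log2 difference was −0.40 (SE 0.17, 95% interval −0.80 to 0.0038, limma adjusted p = 0.745). Kcnq1, the slow delayed rectifier subunit, had 555, 554 and 220 in KO hearts, against 539, 464 and 370 in WT hearts. Its KO values at 14 months were both above WT and its KO value at 5 months was below, so that the mean difference was −0.15 (SE 0.19, limma adjusted p = 0.83). Kcnq1 shares 121 of 4093 bp of exon with Kcnq1ot1 and Kcnj3 shares 1621 of 5215 bp with Gm26794, both transcribed from the opposite strand, and reads of those stretches likewise cannot be told apart. None of these 3 antisense genes was analysed here.

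The other potassium channel genes gave 0 calls of 43 tested between genotypes (25 higher and 18 lower in KO, 0 at an unadjusted p under 0.05), and 14 of the 57 were too low to be tested. Among those of smallest unadjusted p were Kcnj8 (log2 difference −0.33), the beta subunit Kcnab1 (0.53), the calcium-binding subunit Kcnip3 (−0.51) and Kcna7 (0.55), each with a limma adjusted p of 0.745. The median log2 difference over the 43 genes was 0.03, against −0.02 over all genes tested. The 8 scaffold and trafficking genes gave 0 calls, those of smallest p being Akap9 (−0.26) and Nedd4l (0.23), with a limma adjusted p of 0.745 each. The 13 transcription factors tied to these channels also gave 0 calls. Irx4, a ventricular Iroquois factor, had 401, 480 and 219 in KO hearts, against 346, 315 and 118 in WT hearts (log2 difference 0.57, SE 0.16, limma adjusted p = 0.745). Klf15, which drives the daily rhythm of Kcnip2 in mouse heart, had 528, 718 and 640 in KO hearts, against 757, 774 and 954 in WT hearts (−0.40, SE 0.14, limma adjusted p = 0.745). No list of cell type markers held a called gene between genotypes, though estimates leaned below 0 in several. They were below 0 for all 7 ventricular, 6 atrial, 6 fibroblast, 6 macrophage and 5 erythroid markers tested (medians −0.30, −0.33, −0.33, −0.25 and −1.13). Estimates were above 0 for all 5 conduction markers tested (median 0.31) and for 4 of 5 adipocyte markers (0.70). Below 0 were 5 of 6 endothelial (−0.12) and 5 of 7 smooth muscle and pericyte markers (−0.04). Of all genes tested, 7455 of 13823 were below 0.

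The second comparison set 14 months against 5 months with genotype as a covariate. Both 5-month libraries are replicate 3, with 1 per genotype, so age and whatever else set replicate 3 apart cannot be told apart. Y-linked genes were high in both 5-month hearts and, at 14 months, in replicate 1 but not in replicate 2 of each genotype, and their part in the age results was not tested. Of the 9 members 5 passed at an adjusted p under 0.05, 4 higher and 1 lower at 14 months, against a background of 33.7% of 13823 genes (17.7% higher, 16.0% lower). The same 5 members had no overlap between the ages, as had 50.7% of all genes (25.7% higher at 14 months, 25.0% lower). The median log2 difference was 0.32 over the members and 0.02 over all genes tested.

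Kcnj3 had 2485 ± 139 (SD, n = 4) in the libraries of 14 months and 1284 (KO) and 1814 (WT) in the 5-month libraries. Every 14-month library was above both 5-month libraries, and the log2 difference was 0.70 (SE 0.13, 95% interval 0.39 to 1.01, limma adjusted p = 0.00637), higher in both genotypes (0.91 in KO, 0.49 in WT). It was the one member called under all 16 alternatives, with adjusted p-values of 0.00218 to 0.0281. Its partner Kcnj5 had 1097 ± 187 at 14 months, against 1063 (KO) and 1414 (WT) at 5 months, and did not pass (−0.18, SE 0.19, limma adjusted p = 0.499). Without KO replicate 3 the Kcnj5 difference was −0.57 (limma adjusted p = 0.0272), and without WT replicate 3 it was 0.22 (range of adjusted p over its alternatives 0.0272 to 0.824). The log2 ratio of Kcnj3 to Kcnj5 was 1.09 and 0.85 (KO), 1.36 and 1.48 (WT) at 14 months and 0.27 (KO) and 0.36 (WT) at 5 months, without overlap (difference 0.88, exact permutation p = 0.133, the smallest that 4 against 2 can give, and 0.533 adjusted over 8 ratios).

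Both genes are known for their expression in atrial muscle, and the markers of atrial cells were lower at 14 months. Their summed signal was 14048 to 27091 at 14 months and 41483 to 65229 at 5 months, with 5 of 6 past the test. Markers of the conduction system and pacemaker cells summed to 460 to 817 at 14 months and 428 to 455 at 5 months (2 of 5 tested higher). Of the 7 ventricular markers 4 were lower and 1 higher at 14 months, at sums of 520766 to 590870 against 567469 to 1077920. Endothelial markers summed to 11682 to 15334 at 14 months and 7735 to 10030 at 5 months (3 of 6 higher), and fibroblast markers to 15173 to 17867 against 10565 to 16804 (3 of 6 higher). The part of these shifts in the channel results was not tested.

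Kcnj11 had 1892 ± 164 at 14 months, against 1286 (KO) and 1270 (WT) at 5 months. The 5-month values were close together and below every 14-month value (log2 difference 0.56, SE 0.12, 95% interval 0.29 to 0.84, limma adjusted p = 0.00943). Kcnq1 had 528 ± 43.1 at 14 months, against 220 (KO) and 370 (WT) at 5 months (0.88, SE 0.20, limma adjusted p = 0.0132). The size of the Kcnq1 difference varied with the 5-month library used. Without KO replicate 3 it was 0.43 (limma adjusted p = 0.0614), and without WT replicate 3 it was 1.33, with adjusted p-values of 0.00161 to 0.0619 over its 16 alternatives.

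Kcna5 had 603 ± 138 at 14 months, against 292 (KO) and 439 (WT) at 5 months, the highest 5-month value being just below the lowest 14-month value of 478. The log2 difference was 0.72 (SE 0.19, 95% interval 0.30 to 1.15, limma adjusted p = 0.0198). Its call was lost without KO replicate 2 (0.64, adjusted p = 0.0575), KO replicate 3 (0.58, 0.124) or WT replicate 1 (0.63, 0.0555), and without the trend and robust options (0.0556), within a range of 0.0104 to 0.124 over 16 alternatives. Kcnj2 was the member that fell, to 618 ± 74.1 at 14 months, against 1071 (KO) and 825 (WT) at 5 months (−0.61, SE 0.16, 95% interval −0.98 to −0.25, limma adjusted p = 0.0207). Its call was lost without KO replicate 1 (−0.60, adjusted p = 0.0524), KO replicate 2 (−0.57, 0.0613), KO replicate 3 (−0.42, 0.120) or WT replicate 1 (−0.55, 0.0620) and without the trend and robust options (0.0574), within a range of 0.0119 to 0.120. The ratio of Kcnj2 to Kcnj12, the second inward rectifier of this current, was 1.67 and 1.10 (KO), 1.13 and 1.67 (WT) at 14 months and 2.03 (KO) and 1.92 (WT) at 5 months, without overlap (difference −0.59, exact permutation p = 0.133, adjusted p = 0.533). Kcnj12 alone differed by −0.03 (limma adjusted p = 0.923).

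The transient outward genes did not pass between ages. Kcnd2 had 362 ± 55.4 at 14 months, against 284 (KO) and 349 (WT) at 5 months (0.19, SE 0.18, limma adjusted p = 0.456). Kcnip2 had 2230 ± 339 at 14 months, against 1925 (KO) and 1851 (WT) (0.23, SE 0.16, limma adjusted p = 0.302). Kcnd3 had 384 ± 46.7 at 14 months, against 433 (KO) and 214 (WT) at 5 months. The 5-month KO value was within the 14-month range of 332 to 438, and the 5-month WT value was below it. Its difference was 0.32 (SE 0.18, limma adjusted p = 0.205), but 0.69 without KO replicate 3 (adjusted p = 0.0144) and −0.04 without WT replicate 3 (range 0.0144 to 0.854 over 16 alternatives).

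Over all genes the age difference moved with base composition and length. With genes put in 5 classes of equal size by the GC content of the longest transcript, its median was −0.25 in the class of lowest GC and 0.30 in that of highest GC. In 5 classes by length it was −0.35 in the shortest and 0.21 in the longest. The 9 channel genes span that range, with Kcnj2 at 41.2% GC in the lowest class, Kcnj3 (43.9%) and Kcnd2 (44.4%) in the next, and Kcnq1 (56.9%) and Kcnj11 (57.1%) in the highest. When the trend with length and GC was removed from each library, a setting chosen after seeing the data, 2 members of 9 kept an adjusted p under 0.05, against 25.4% of all genes. They were Kcnj3 at 0.78 (limma adjusted p = 0.00738) and Kcnj2 at −0.47 (0.0480). Kcnj11 came to 0.25 (0.136), Kcnq1 to 0.61 (0.0619) and Kcna5 to 0.57 (0.0544). The plot of the age difference against GC content shows both sets of values.

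**Figure D4:**
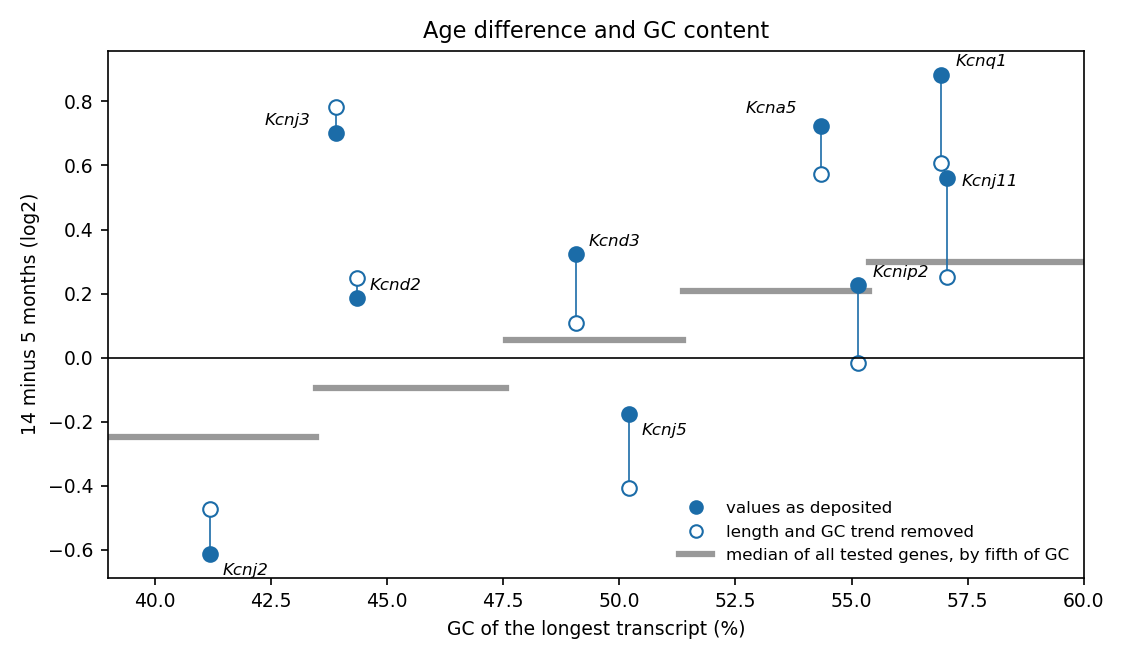
Difference of 14 minus 5 months (log2) of each channel gene against the GC content of its longest transcript, from the values as deposited (filled) and with the length and GC trend of each library removed (open), with grey bars for the median of all tested genes in each of 5 GC classes. Kcnj3 is at 0.70 as deposited and 0.78 with the trend removed, and Kcnj11 at 0.56 as deposited and 0.25 with the trend removed.

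The windows upstream of the RefSeq transcription start (GRCm38.p6) are shown for the acetylcholine-activated pair, which differed in their age calls, for Kcnj2, the one member called lower at 14 months, and for Kcna5. Of the 9 members 7 had an entry, and Kcnj11 and Kcnq1 had none. Each window is the 250 bases before the start, 5′ to 3′ on the strand of the gene, at chr2:55435720-55435969 (+), chr9:32344345-32344594 (−), chr11:111065914-111066163 (+) and chr6:126535556-126535805 (−), and capitals mark a motif match.
Kcnj3: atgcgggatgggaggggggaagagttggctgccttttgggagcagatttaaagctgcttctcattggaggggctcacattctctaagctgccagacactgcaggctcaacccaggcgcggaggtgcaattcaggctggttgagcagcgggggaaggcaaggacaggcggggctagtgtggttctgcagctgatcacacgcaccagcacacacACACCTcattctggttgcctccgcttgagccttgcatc
Kcnj5: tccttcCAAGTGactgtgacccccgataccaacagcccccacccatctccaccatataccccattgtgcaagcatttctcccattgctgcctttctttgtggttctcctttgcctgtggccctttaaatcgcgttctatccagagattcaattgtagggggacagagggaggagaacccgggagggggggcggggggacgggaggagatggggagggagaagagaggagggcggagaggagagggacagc
Kcnj2: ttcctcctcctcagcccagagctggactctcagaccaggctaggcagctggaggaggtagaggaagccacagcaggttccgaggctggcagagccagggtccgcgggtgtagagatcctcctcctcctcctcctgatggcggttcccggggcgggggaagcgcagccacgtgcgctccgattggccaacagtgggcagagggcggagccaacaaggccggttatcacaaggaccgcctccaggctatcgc
Kcna5: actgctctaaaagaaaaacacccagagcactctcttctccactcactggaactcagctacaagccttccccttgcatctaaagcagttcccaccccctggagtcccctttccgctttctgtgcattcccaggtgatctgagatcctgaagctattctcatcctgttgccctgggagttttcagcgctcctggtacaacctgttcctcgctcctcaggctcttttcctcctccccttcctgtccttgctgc

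Short motifs of factors from the list of cardiac transcription factors were searched on both strands of each window. AGATAA, a site of GATA factors, was found in 9.99% of all 32851 windows of this length. CAAGTG, a site of Nkx2-5, was found in 11.6% of them. AGGTGT, a site of T-box factors, was found in 11.8%. The Iroquois site ACANNTGT was found in 6.31%. The TATA box, searched as TATAAA, was found in 12.4%. The Kcnj3 window held AGGTGT on the reverse strand, read as ACACCT and starting 38 bases before the start. The Kcnj5 window held CAAGTG, starting 244 bases before the start. The windows of Kcnj2, Kcna5, Kcnd2, Kcnd3 and Kcnip2 held none of these letters, and no matches overlapped. The windows were 53.2% GC for Kcna5, 58.4% for Kcnj3, 58% for Kcnj5 and 65.6% for Kcnj2.

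Among the 13 transcription factors tied to these channels, 9 were higher at 14 months and 0 lower, against the background of 17.7% higher and 16.0% lower given above, with a median log2 difference of 0.93 against 0.02 over all genes tested. The list was chosen with earlier results of these data known, so this count cannot be read as an enrichment over the background. Irx4 differed by 1.24, Irx5 by 1.19, Irx3 by 0.97, Etv1 by 1.07, Tbx3 by 1.05, Gata4 by 0.93, Nkx2-5 by 0.93, Tbx5 by 0.65 and Nfatc3 by 0.45 on the log2 scale. Nkx2-5, a core cardiac factor, had 808 and 858 (KO), 743 and 696 (WT) at 14 months, against 422 (KO) and 390 (WT) at 5 months. Irx5, known in mouse as a repressor of Kcnd2, had 182 and 145 (KO), 113 and 148 (WT) at 14 months, against 63.2 (KO) and 62.2 (WT) at 5 months. With the length and GC trend removed, Tbx5 alone of the 9 (0.41, limma adjusted p = 0.0540) did not pass. Of 8 scaffold genes, the ubiquitin ligase Nedd4l was higher (0.50), and Akap9, which anchors kinases to the Kcnq1 channel (−0.47), and the caveolin Cav3 (−0.73) were lower at 14 months.

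Of the 43 other potassium channel genes tested, 7 were higher and 1 lower at 14 months (18.6% against the background of 33.7%), with a median log2 difference of 0.50. The filter of 10 in at least 3 libraries can be met by the 4 libraries of 14 months alone, but not by the 2 of 5 months. Kcnk1, Dpp6 and Kcnmb4 were under 10 in both 5-month libraries and were tested through their 14-month values. The count by direction thus follows in part from the filter. The ATP-sensitive receptor genes rose with their pore gene Kcnj11. Abcc9 had 6161 to 7868 at 14 months, against 3812 (KO) and 4995 (WT) at 5 months (log2 difference 0.69, limma adjusted p = 0.00681), and Abcc8 had 534 to 597, against 381 (KO) and 384 (WT) (0.58, adjusted p = 0.00935). With the length and GC trend removed Abcc9 passed (0.63, adjusted p = 0.0135) and Abcc8 did not (0.11, 0.543). The background channel Kcnk3 had 3863 to 4434 at 14 months, against 3127 (KO) and 2482 (WT) at 5 months (0.62), and came to 0.14 with the trend removed (adjusted p = 0.357). The others higher were of low signal. Kcnn3, a calcium-activated channel, had 40.8 to 63.7, against 21.05 (KO) and 24.9 (WT) (1.18). The tandem-pore channel gene Kcnk1 had 19.2 to 76.8, against 7.17 (KO) and 8.73 (WT) (2.11). The 2 other genes lay at or under 6 at 5 months, the transient outward auxiliary subunit Dpp6 (13.4 to 33.8, against 0.922 (KO) and 5.65 (WT)) and Kcnmb4 (10.3 to 20.2, against 0.430 (KO) and 2.17 (WT)). Dpp10, related to Dpp6, was lower, with 21.9 to 26.4 at 14 months, against 64.7 (KO) and 39.5 (WT) at 5 months (−1.06).

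The third comparison asked whether the genotype difference itself differed between ages. It rests on 1 library per genotype at 5 months and 2 residual degrees of freedom. No member passed limma (0 of 9, against 2.08% of all genes). With limma-voom 0 of the 9 passed, against 0.969% of all genes. Over the alternatives the share of all genes called ran from 0.02% without a filter to 2.85% with a minimum value of 50. At an unadjusted p under 0.05 stood 4 of 9 members and 3211 of 13823 genes. Kcnq1 had the largest estimate, 0.90 (SE 0.22, 95% interval 0.39 to 1.41, adjusted p = 0.0769). Its libraries were 555 and 554 in KO, against 539 and 464 in WT at 14 months, and 220 in KO against 370 in WT at 5 months. Kcnj5 followed with 0.79 (SE 0.22, adjusted p = 0.0990) and Kcnd3 with −0.73 (SE 0.22, adjusted p = 0.112). Kcnj5 and Kcnq1 were the 2 members with KO and WT apart at 14 months and in the opposite order at 5 months, a pattern of 16.4% of all genes. Of the other potassium channel genes 2 were called, among them Kcnj15, both below 0, and under 9 of the alternatives at least 1 of these calls was lost.

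Within the 6 libraries each member had a protein-coding gene of nearly the same pattern among 12995 compared, with Pearson correlations of log2(value + 1) between 0.984 and 0.999. These were Cfap97 for Kcnj2 (0.998), Ube2z for Kcnj3 (0.997), Fbxw17 for Kcnj5 (0.989), the immediate early gene Egr1 for Kcnj11 (0.998) and Adgrl2 for Kcnq1 (0.999). For the remaining members they were Rnf34 for Kcnd2 (0.984), Trp53i13 for Kcnd3 (0.995), Fgf13, a modulator of sodium channels, for Kcnip2 (0.985) and Emc8 for Kcna5 (0.997). The libraries share age and scaling, each correlation rests on 6 points, and each gene named is the highest of 12995. Genes above 0.95 numbered from 495 with Kcnj3 to 6 with Kcnd2. The 5 members called between ages had 48 to 495 such genes, and of the other 4 Kcnd3 had 61, Kcnj5 14, Kcnip2 10 and Kcnd2 6.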

How the data were processed

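RNA sequencing libraries of 6 mouse hearts were described from the gene table deposited by the authors. The submitters' processing notes name Salmon 1.5.2 and the mm10 build, and how the values were normalized is not stated in them. The deposited values are a normalized signal per gene and not whole reads, so no count test was run and depth is unknown. In a library 9.91 to 14.1% of low values fell on whole multiples of its best step, within a tolerance of 0.01. That step was 1.04 (KO) and 1.24 (WT) in the 5-month libraries, against 0.885 to 0.934 at 14 months. Whether depth differed between the ages was not tested. Symbols, positions, exon lengths and transcript GC came from GENCODE M21 (GRCm38, the same build; 20122 of 20254 identifiers matched), and 108 broken lines that hold no values were dropped. Genes at 10 or more in at least 3 libraries (13823, all 9 members included) were fitted on log2(value + 1) with limma 3.58.1 in R 4.3.3 (trend and robust options, Benjamini-Hochberg over all genes, threshold 0.05), with genotype and age as terms (3 residual degrees of freedom) and then their interaction. Fold changes are on the log2(value + 1) scale. SE is limma's moderated standard error and SD is over libraries. Subunit ratios were compared by exact two-sided permutation over libraries (scipy 1.17.1). The scripts were tested on simulated data. KO and WT libraries of one replicate number share their age, and replicate 2 of both its low Y-linked signal. Their deviations from the genotype means correlated at 0.39, 0.38 and 0.62 by number, at 0.37 and 0.38 with the 14-month numbers crossed, and at 0.01 within number at 14 months once the 14-month means were removed.

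Members and gene lists were chosen with earlier results of these data known. The text names all 9 members; of the other potassium channel genes those called, or, with under 5 called, the 5 of smallest p, and the 5 most abundant per length; of scaffolds and transcription factors those called, or the 2 of smallest p; the partner genes of the ratios; and for each member the protein-coding gene of highest correlation. For the interaction only called genes are named. Some results under this rule, 1 of the 8 subunit ratios among them, are not reported here. Kcne5 was matched under its older symbol, and Kcne2 was not analysed here. Alternatives were other pseudocounts, filters and scalings, limma without trend and robust options, limma-voom, a replicate block, no age term, 14 months alone, each library left out, and removal of length and GC trends.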

Additional observations from a re-analysis of the deposited data

Results flagged for a closer look

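Kcnj5 and Kcnq1 drew attention because their KO and WT libraries were in opposite order at the 2 ages. For Kcnj5 the genotype difference at 14 months exceeded that at 5 months by 0.79 on the log2 scale (limma interaction, adjusted p = 0.0990), with 1165 and 1309 in KO, against 1046 and 866 in WT at 14 months, and 1063 in KO against 1414 in WT at 5 months. For Kcnq1 the same quantity was 0.90 (adjusted p = 0.0769), with 555 and 554 in KO, against 539 and 464 in WT at 14 months, and 220 in KO against 370 in WT at 5 months. Neither passed the threshold of 0.05, and 16.4% of all genes tested had this opposite order. No library of 14 months was an outlier by Dixon's criterion for any of the 9 members. The 5-month libraries, at 1 per genotype, could not be checked in this way.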

How the results depend on the processing

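Precision is limited by 3 libraries per genotype and 2 at 5 months, and depth is unknown. No alternative called a member between genotypes or in the interaction. With the replicate block in place of age 0 members, 0 other potassium channel genes and 0 of all genes were called. At an unadjusted p under 0.05 stood 583 genes, against 841 with age. The fit with age had also called 0 of all genes and so had no call to lose. Whether pairing by number matters cannot be read from these calls. With the 4 libraries of 14 months alone the KO minus WT difference turned sign for Kcnj2 (−0.0042), Kcnq1 (0.15) and Kcnd2 (0.018); the fits without KO or WT replicate 3 gave the same values, and the interaction could not be fitted without them.

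The count of members called between ages was 3 without the trend and robust options (27.4% of all genes) and 2 with the length and GC trend removed (25.4%), where Kcnip2 came to −0.017. The other potassium channel genes called between ages came to 4 with a minimum value of 50, against 39.6% of all genes tested at that minimum. Dpp6, Dpp10, Kcnk1 and Kcnmb4 did not reach 50 in 3 libraries and so were no longer tested there. Leaving out 1 library gave 3 to 5 members and 7 to 15 other genes. The members called also changed between these fits. Without any 1 library of 14 months they always included Kcnj3, Kcnj11 and Kcnq1, with 23.5 to 25.6% of all genes called. Without KO replicate 3, which leaves 1 library at 5 months, the age differences of Kcnq1, Kcna5 and Kcnj2 came to 0.43, 0.58 and −0.42. Those of Kcnd3 and Kcnj5 came to 0.69 and −0.57 there. The cause of these changes was not tested. For single members leaving out 1 library moved the KO minus WT difference between −0.0042 and 0.28 for Kcnj2, −0.039 and 0.37 for Kcnj5, −0.30 and −0.073 for Kcnj3, 0.042 and 0.17 for Kcnj11, −0.30 and 0.15 for Kcnq1, −0.23 and 0.018 for Kcnd2, and −0.22 and 0.053 for Kcnip2. The age difference moved between −0.57 and 0.22 for Kcnj5 and −0.042 and 0.69 for Kcnd3. Of the subunit ratios, KO minus WT ran from −0.13 to 0.095 for Kcnip2 to Kcnd2, −0.19 to 0.28 for Kcnj2 to Kcnj12, and −0.96 to 0.25 for Kcnq1 to Kcne1. Between ages they ran from −0.79 to 0.52 for Kcnd2 to Kcnd3, −0.13 to 0.22 for Kcnip2 to Kcnd2, −0.57 to 0.38 for Kcnip2 to Kcnd3, −0.34 to 0.073 for Kcnj11 to Abcc9, and −0.15 to 1.68 for Kcnq1 to Kcne1. The 2 interaction calls among other potassium channel genes came to 1 with a pseudocount of 5, and to 0 without a filter, with quantile normalization, without the trend and robust options, with limma-voom and without any 1 library of 14 months. Count tests were not run, since the values are not counts.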
